A study of Mus musculus with 15 samples.

Results

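Retinoid metabolism was followed through 6 genes of the deposited count table, Rbp2, Lrat, Bco1, Retsat, Adh1 and Aldh1a1, out of 17185 genes in all. Bco1 stands in the table under its earlier symbol Bcmo1. The list was selected on measured values: it was proposed with the High Fat Diet against Control Diet result of proximal stem-called cells known, in which Retsat and Aldh1a1 had been called. That contrast, and the same contrast in the other cells of those libraries, is therefore given as a description with no test. The study addresses how a diet rich in fat changes stem cells of the mouse intestine. Single cells of the small intestine, proximal and distal, and of the colon were sequenced from 5 mice with Seq-Well with second strand synthesis, which isolates cells in small wells and tags each RNA molecule with a unique molecular identifier (UMI). The High Fat Diet group (3 mice) received 60% of kcal from fat, and the Control Diet group (2 mice) a purified diet with 10% of kcal from fat and matching sucrose. All 5 mice were 6 months old and carried Lgr5-eGFP-IRES-CreERT2, a knock-in that places a green fluorescent protein and an inducible Cre in the Lgr5 gene and is known to be silent in part of the crypts. The labels name no tamoxifen treatment.

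Dietary vitamin A reaches the enterocyte as beta-carotene or as retinol. BCO1 cleaves beta-carotene to retinal, RBP2 carries retinol and retinal inside the enterocyte, and LRAT joins retinol to a fatty acid so that it can leave in chylomicrons. RETSAT saturates retinol to dihydroretinol, alcohol dehydrogenases such as ADH1 can oxidise retinol to retinal, and ALDH1A1 oxidises retinal to retinoic acid, the ligand of nuclear retinoic acid receptors.

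Promoter sequences are shown for 3 members. Retsat and Rbp2 were higher in High Fat Diet than in Control Diet mice in the proximal small intestine, and Bco1 was close to equal. The motif AGGTCA, a half-site known to be bound by nuclear receptors that pair with the retinoid X receptor, was searched on both strands of the 300 bases around each annotated start, as listed by RefSeq for GRCm38.p6. In the sequences its matches stand in capitals, all of them as the reverse complement TGACCT. All 6 members had a promoter in that list.
Retsat promoter, chr6:72598352-72598651, plus strand: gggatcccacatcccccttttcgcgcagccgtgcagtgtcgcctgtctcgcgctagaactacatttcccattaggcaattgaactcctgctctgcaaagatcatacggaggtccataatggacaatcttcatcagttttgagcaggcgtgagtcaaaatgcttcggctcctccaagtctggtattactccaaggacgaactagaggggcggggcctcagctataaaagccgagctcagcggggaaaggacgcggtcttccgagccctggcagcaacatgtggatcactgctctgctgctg
Rbp2 promoter, chr9:98490287-98490586, plus strand: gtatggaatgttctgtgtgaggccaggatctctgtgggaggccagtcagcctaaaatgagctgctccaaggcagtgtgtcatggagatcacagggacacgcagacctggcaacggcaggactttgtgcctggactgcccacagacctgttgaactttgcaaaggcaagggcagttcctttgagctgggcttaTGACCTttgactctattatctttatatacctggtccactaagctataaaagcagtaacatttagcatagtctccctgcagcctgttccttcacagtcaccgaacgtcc
Bco1 promoter, chr8:117095615-117095914, plus strand: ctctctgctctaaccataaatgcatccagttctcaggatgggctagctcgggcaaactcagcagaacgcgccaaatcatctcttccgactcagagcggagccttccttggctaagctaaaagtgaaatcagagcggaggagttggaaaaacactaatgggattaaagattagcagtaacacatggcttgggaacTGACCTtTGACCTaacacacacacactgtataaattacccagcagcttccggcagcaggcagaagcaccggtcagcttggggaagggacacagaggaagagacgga
Rbp2 held 1 match and Bco1 held 2 matches separated by 1 base. The windows of Retsat, Lrat and Adh1 and both windows of Aldh1a1 held none. Of all 32851 promoters, 16.3% held at least 1 match and 1.79% at least 2. A match is a string of letters and no evidence of binding.

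Counts were summed for each mouse and organ over stem-called cells and over the remaining, uncalled cells. In all 18919 cells, the stem call of the authors' cell table matched the presence of an Lgr5 or eGFP UMI. Levels are given as CPM, the gene's UMIs per 1000000 UMIs of its sum. Each of the 15 libraries held 324 to 1890 cells with a median of 2723 to 21609 UMIs. Stem-called sums rested on 27 to 617 cells and 321496 to 13694552 UMIs, and uncalled sums on 1699260 to 28652200 UMIs. The smallest sums of both kinds came from the colon of High Fat Diet mouse 2. Uncalled cells included immune cells: in the colon, 298 of 470 uncalled cells of High Fat Diet mouse 1 and 115 of 297 of High Fat Diet mouse 2 carried at least 2 UMIs of immune genes. In the proximal part 154 of 872 uncalled and 26 of 207 stem-called cells of High Fat Diet mouse 1 did. The other proximal libraries had 40 to 60 such cells among 1040 to 1438 uncalled and 8 to 20 among 302 to 617 stem-called cells. Uncalled cells also included cells of clusters named stem-like by marker genes. In the proximal part these were 41.6% of uncalled cells in Control Diet mouse 1 and 0.46% in Control Diet mouse 2. High Fat Diet mice held 0.34 to 0.83%. Outside Control Diet mouse 1, clusters without a name held 34.4 to 88.9% of proximal uncalled cells, with the highest share in High Fat Diet mouse 1. Cluster 9, without a name, held 861 proximal cells of High Fat Diet mice. Its median was 4281.5 UMIs, and 2 T cell markers were raised in it. Summed over 8 proximal enterocyte markers other than Rbp2, uncalled cells held 1566 to 3284 CPM in the proximal small intestine and 16.5 to 51.7 CPM in the colon, where Fabp1, Apoa4 and Apoa1 were at 0. In such sums, fewer cells of a type and less RNA per cell cannot be told apart. A 0 in a library sets no limit on a level, because genes seen in very few cells of a library appear to have been removed from it before deposit.

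In the proximal small intestine, the retinol carrier Rbp2, the saturase Retsat and the dehydrogenase Aldh1a1 were higher in all 3 High Fat Diet mice than in both Control Diet mice, in stem-called and in uncalled cells alike. Retsat stood at 131, 119 and 88.6 CPM in stem-called cells of High Fat Diet mice 1 to 3, against 47.0 and 41.5 CPM in Control Diet mice 1 and 2. Uncalled cells held 143, 184 and 133 CPM of it in the High Fat Diet group, against 54.5 and 47.2 CPM in the Control Diet group. The lowest High Fat Diet value of Retsat thus lay above the highest Control Diet value in both populations, with log2 fold changes of 1.38 ± 0.22 (SE) in stem-called cells and 1.64 ± 0.19 in uncalled cells. Aldh1a1 was at 21.5, 18.6 and 19.5 CPM in stem-called cells of High Fat Diet mice and at 5.34 and 4.31 CPM in those of Control Diet mice. In uncalled cells it was at 50.1, 84.4 and 74.4 CPM in High Fat Diet mice and at 7.63 and 14.3 CPM in Control Diet mice. The groups did not overlap, and the log2 fold changes were 2.08 ± 0.37 and 2.69 ± 0.63. Aldh1a7, a close relative beside Aldh1a1 on the same chromosome, moved in the same direction at 5.001 ± 1.30 CPM in stem-called cells of High Fat Diet mice (SD, n = 3) and 1.73 ± 0.04 CPM in those of Control Diet mice (n = 2), and the counts of the 2 genes are uncertain where reads could fall to either.

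Rbp2 held 33.5, 35.0 and 22.8 CPM in proximal stem-called cells of High Fat Diet mice, against 6.19 and 10.3 CPM in those of Control Diet mice. Its uncalled cells reached 95.04, 146 and 145 CPM in High Fat Diet mice and 31.0 and 73.8 CPM in Control Diet mice. Both comparisons were free of overlap, with log2 fold changes of 1.89 ± 0.58 and 1.32 ± 0.89. The value of Rbp2 in uncalled cells was 0.79 without Control Diet mouse 1 and 2.15 without Control Diet mouse 2, so it rests on which Control Diet mouse is kept. In stem-called cells the remaining members were not higher in every High Fat Diet mouse. The ester-forming enzyme Lrat was at 27.9, 33.5 and 43.2 CPM in stem-called cells of High Fat Diet mice and at 43.3 and 50.1 CPM in those of Control Diet mice, a log2 fold change of -0.39 ± 0.36. Adh1 ranged from 183 to 229 CPM in stem-called cells of High Fat Diet mice and was at 294 and 108 CPM in Control Diet mice, which enclosed the High Fat Diet range. In uncalled cells Adh1 held 369, 372 and 395 CPM in High Fat Diet mice and 352 and 206 CPM in Control Diet mice, and its log2 fold change of 0.49 was 0.87 without Control Diet mouse 1 and 0.20 without mouse 2. Bco1 stayed at 1.77 to 2.47 CPM in stem-called cells of High Fat Diet mice and at 1.46 to 2.55 CPM in those of Control Diet mice, on 5 to 21 UMIs per sum. Every High Fat Diet mouse stood above every Control Diet mouse for 3 of 6 members in stem-called cells, where this held for 7.31% of the 12339 genes tested, and for 4 of 6 in uncalled cells, where it held for 5.98% of 14307 genes. Lrat alone lay entirely below in stem-called cells, as 9.78% of genes did. The list was chosen on this contrast, so these counts describe the choice.

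**Figure D1:**
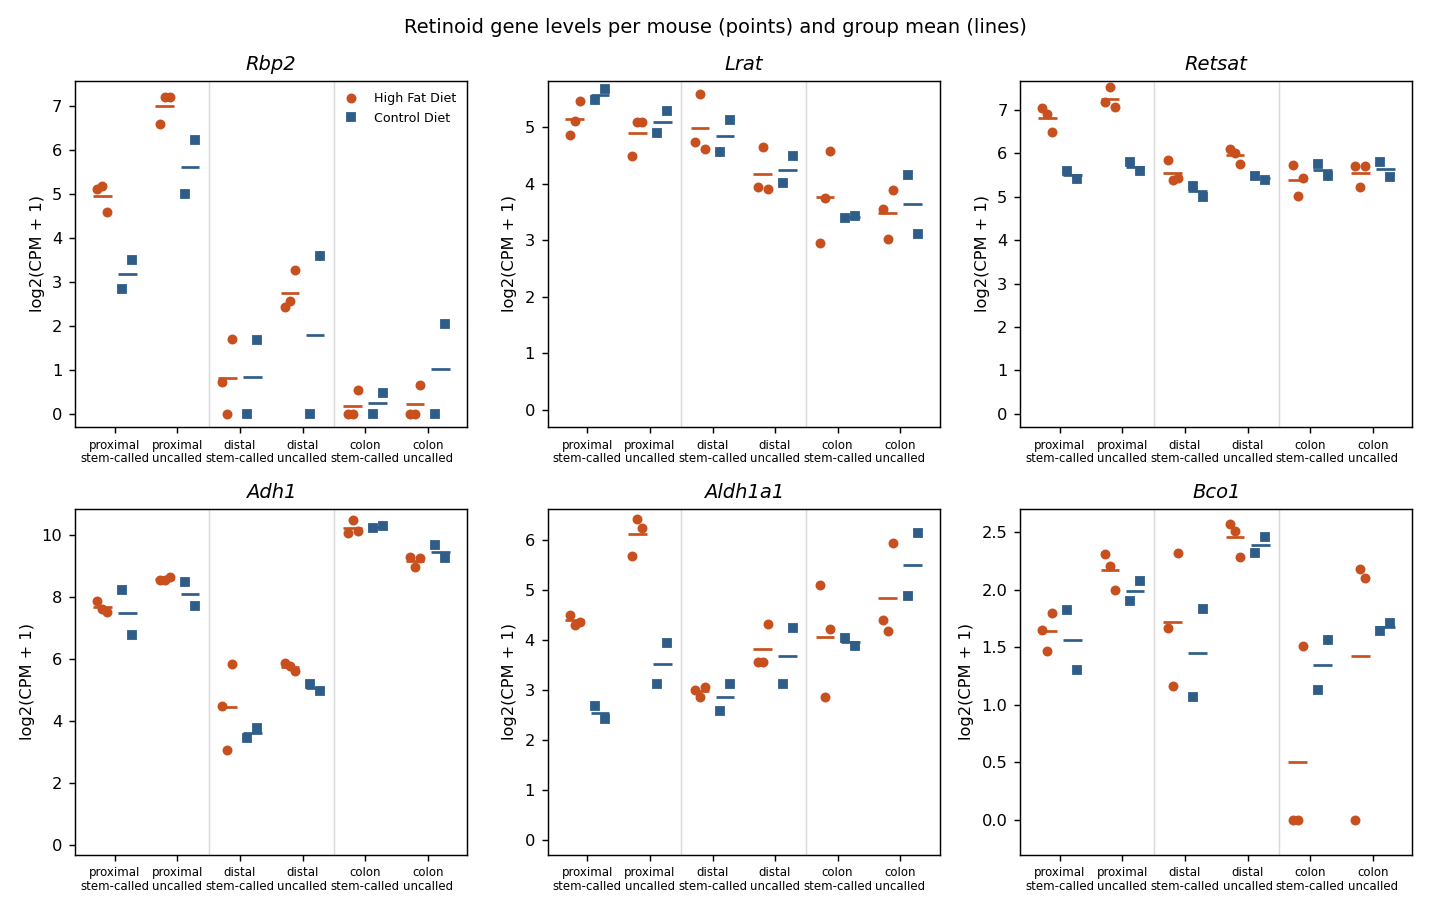
Level of each member as log2(CPM + 1), by organ and stem call, 1 point per mouse (circles, High Fat Diet, n = 3; squares, Control Diet, n = 2), with lines at the group means. In the 2 proximal columns the High Fat Diet points of Rbp2, Retsat and Aldh1a1 lie above the Control Diet points, and Adh1 reaches its highest levels in the colon.

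Markers of proximal enterocytes moved with diet in the same libraries. Their sum, without Rbp2, ranged from 678 to 1185 CPM in proximal stem-called cells of High Fat Diet mice and from 351 to 371 CPM in those of Control Diet mice. In uncalled cells it ranged from 2437 to 3284 CPM in High Fat Diet mice and from 1566 to 2121 CPM in Control Diet mice. Of the 8 markers, 6 were higher and 1 was lower in every High Fat Diet mouse than in every Control Diet mouse in stem-called cells (7.31% and 9.78% of all genes). In uncalled cells 2 were higher and 1 was lower (5.98% and 10.4% of all genes), and none of the 8 was at 0. Their part in the results was not tested. Retsat and Aldh1a1 were also higher in High Fat Diet mice within proximal enterocyte-like and within dividing-like cells. In proximal enterocyte-like cells, Retsat averaged 289 ± 58.4 CPM in High Fat Diet mice (SD, n = 3) and 70.7 ± 0.26 CPM in Control Diet mice (n = 2), and Aldh1a1 223 ± 2.92 and 27.9 ± 10.6 CPM. Rbp2, which was itself among the markers that named these cells, averaged 429 ± 35.8 CPM in High Fat Diet mice and 183 ± 84.6 CPM in Control Diet mice. Cluster 10 held 93.0% of the proximal enterocyte-like cells of High Fat Diet mice and cluster 16 held 92.6% of those of Control Diet mice, so the class was not the same cluster in the 2 diets. Dividing-like cells came from cluster 1 in both diets (99.9% and 99.3%), and there Retsat averaged 155 ± 36.4 CPM in High Fat Diet mice against 41.1 ± 2.41 CPM in Control Diet mice, and Aldh1a1 31.1 ± 2.64 against 7.02 ± 1.85 CPM. High Fat Diet mouse 1 gave only 8 stem-called and 13 uncalled dividing-like cells, mouse 2 gave 68 and 312, and mouse 3 gave 88 and 287. Proximal enterocyte-like cells of these mice numbered 2 and 24, 14 and 442, and 10 and 363. In stem-like cells, 132 in High Fat Diet and 895 in Control Diet mice, Retsat averaged 84.2 ± 16.3 and 44.2 ± 13.7 CPM. Rbp2 averaged 6.03 ± 3.63 CPM in High Fat Diet mice and 17.7 ± 17.7 CPM in Control Diet mice. Control Diet mouse 1 gave 429 stem-called and 433 uncalled stem-like cells and Control Diet mouse 2 gave 27 and 6, so these means rest on very unlike numbers of cells. The clusters were made from the same cells, so none of these values was tested.

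Lymphocyte-like cells were taken as cells that should carry little RNA of these genes, so that their values show what RNA from other cells can produce. With cells thinned to 3000 UMIs, Retsat had a UMI in 30.1% of 4253 proximal cells other than T-like, B-like and plasma-like cells of High Fat Diet mice, and in 25.3% of the 79 lymphocyte-like cells of the same libraries (95% Wilson interval 17.0 to 35.9%). In Control Diet mice the shares were 12.9% of 3489 and 13.3% of 75 cells. The median depths were 12869 and 11585 UMIs in High Fat Diet mice and 16346 and 13581.5 UMIs in Control Diet mice. For Retsat in the proximal part the share in other cells was not above that in lymphocyte-like cells by more than counting error. That proximal share is not read as expression or as a difference. In the colon Retsat had a UMI in 14.3% of other and 1.63% of lymphocyte-like cells of High Fat Diet mice, against 13.3% and 3.08% in Control Diet mice. In the distal part the shares were 13.7% and 5.32% in High Fat Diet mice, and 10.4% and 11.9% in Control Diet mice. Most proximal T-like cells came from cluster 23 (76.1% in High Fat Diet and 68.5% in Control Diet mice), which had a median of 14572 UMIs and 52 stem-called cells of 185, against 4172.5 UMIs and 5 of 328 in T-like cluster 18. Whether these are T cells caught with epithelial cells was not tested. Aldh1a1 had a UMI in 10.9% of other cells and 3.80% of lymphocyte-like cells of the High Fat Diet group, against 2.38% and 2.67% in Control Diet mice. The interval of the lymphocyte-like cells of the High Fat Diet group was 1.30 to 10.6% for Aldh1a1. It covers counting error in cells pooled over mice and not the spread between mice, so no diet difference is read from these shares. Rbp2 had a UMI in 19.1% of other cells and 7.59% of lymphocyte-like cells of the High Fat Diet group, against 7.31% and 5.33% in Control Diet mice. Averaged over the High Fat Diet mice, 30.3% of proximal uncalled cells had a Retsat UMI after thinning and 64.0% before it. What part RNA from other cells or cells caught together has in the summed levels was not tested.

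In the 2 organs that the choice of members did not use, the distal small intestine and colon, no member passed the test of diet. In distal stem-called cells, edgeR's quasi-likelihood test called 0 of 6 members, where it called 0.0081% of genes, and DESeq2 also called 0. Only Adh1 was below an unadjusted p of 0.05 by edgeR, as were 330 of 12339 genes. It held 21.4, 7.46 and 55.9 CPM in High Fat Diet mice against 9.91 and 12.7 CPM in Control Diet mice, with a log2 fold change of 1.33 ± 0.56 (adjusted p = 1.0). One High Fat Diet mouse lay below both Control Diet mice. Retsat was higher in every High Fat Diet mouse there, at 56.7, 40.4 and 42.3 CPM against 36.9 and 31.0 CPM in Control Diet mice, a difference of 0.44 ± 0.22. It was the only member of 6 whose groups did not overlap, as 7.98% of genes did in that direction. In uncalled distal cells 0 of 6 members were called by edgeR or DESeq2, where edgeR called 0.00699% of genes. Below an unadjusted p of 0.05 by edgeR were 2 members, as were 288 of 14307 genes. Retsat stood at 67.4, 62.7 and 53.2 CPM in High Fat Diet mice and at 43.4 and 40.9 CPM in Control Diet mice (log2 fold change 0.48 ± 0.18, unadjusted p = 0.021 and adjusted p = 1.0 by edgeR). Adh1 stood at 57.1, 53.6 and 48.1 CPM in High Fat Diet mice and at 35.3 and 30.3 CPM in Control Diet mice (0.64 ± 0.21, unadjusted p = 0.0092 and adjusted p = 1.0 by edgeR). These 2 members were higher in every High Fat Diet mouse, as 9.56% of genes were. Rbp2 and Aldh1a1, high in the proximal small intestine of High Fat Diet mice, differed by -0.30 ± 0.74 and 0.01 ± 0.38 in distal stem-called cells.

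In the colon, 0 of 6 members were called in stem-called cells (0% of genes called by edgeR) or in uncalled cells (0% of genes), and DESeq2 called 0. Below an unadjusted p of 0.05 by edgeR were 0 members, beside 314 of 12339 genes in stem-called and 492 of 14307 in uncalled cells. No member was higher in every High Fat Diet mouse, in stem-called cells (5.87% of genes) or in uncalled cells (6.77% of genes). Adh1 held 1070.1, 1412 and 1102 CPM in stem-called cells of High Fat Diet mice, against 1194 and 1232 CPM in those of Control Diet mice (0.02 ± 0.48). Aldh1a1 spread widely, at 33.1, 6.22 and 17.6 CPM in High Fat Diet mice against 15.4 and 13.7 CPM in Control Diet mice, and the value of High Fat Diet mouse 2 rests on 2 UMIs. Rbp2 was listed at 0 in High Fat Diet mice 1 and 2 and in Control Diet mouse 1, so its fitted fold change in the colon depends on the prior count and is not interpreted. The diet effect in the distal small intestine minus that in the colon was called for 0 of 6 members in stem-called cells (0% of genes) and 0 of 6 in uncalled cells (0% of genes). Below an unadjusted p of 0.05 by edgeR were 0 members in stem-called cells (183 of 12339 genes) and 2 in uncalled cells (202 of 14307 genes). These 2 were Retsat at 0.57 ± 0.26 and Adh1 at 0.97 ± 0.29, and DESeq2 called 0 in both populations. The diet effect of the proximal small intestine was not set against that of another organ by a test, since the members were chosen on it.

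**Figure D2:**
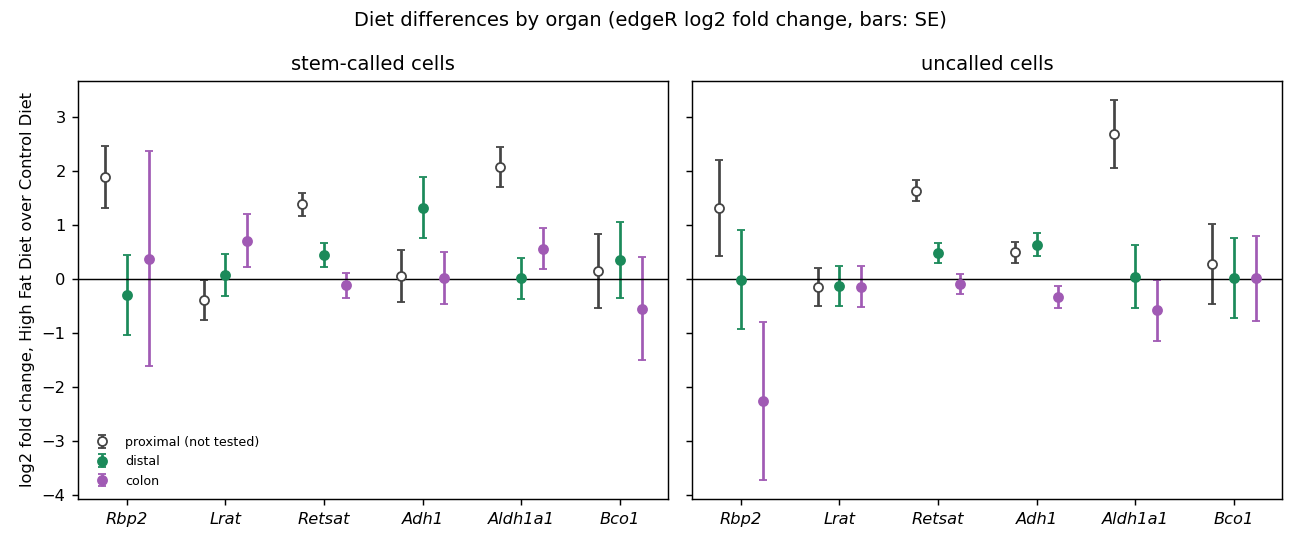
Log2 fold change of each member, High Fat Diet over Control Diet, with its SE, in the proximal and distal small intestine and the colon (left, stem-called cells; right, uncalled cells). Open proximal points are a description; Retsat, Rbp2 and Aldh1a1 stand at 1.32 to 2.69 there, and no distal or colon point passed the test.

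Along the small intestine, Rbp2 and Adh1 were higher in the proximal than in the distal part. Retsat was higher there on average over the diets, an average that holds the diet contrast on which it was chosen. In stem-called cells edgeR called 3 of 6 members, where it called 5.46% of genes, and all 3 were higher in the proximal part. Adh1 stood at 229, 194 and 183 CPM in the proximal part of High Fat Diet mice 1 to 3 and 294 and 108 CPM in that of Control Diet mice 1 and 2, against 21.4, 7.46 and 55.9 CPM and 9.91 and 12.7 CPM in the distal part. Every proximal value lay above every distal value, and the log2 fold change averaged over the diets was 3.40 ± 0.39 (edgeR, adjusted p = 9.4e-05). Lymphocyte-like cells of Control Diet mice held Adh1 at 180 CPM in the proximal and 9.23 CPM in the distal part. The other cells of these mice held 229 and 25.4 CPM. The proximal Adh1 level is therefore not read as expression in stem-called cells, and the part of RNA from other cells in it was not tested. Rbp2 differed by 3.41 ± 0.48 (edgeR, adjusted p = 0.00047): its distal sums held 0.65, 0 and 2.25 CPM in High Fat Diet mice and 0 and 2.17 CPM in Control Diet mice, so the size depends on the prior count. Rbp2 passed the filter on low counts only through its proximal sums, where it is high. Its call and its part in the count of 3 are therefore not read as independent results. Without Control Diet mouse 2 the Rbp2 difference became 6.02. Retsat differed by 0.81 ± 0.15 (edgeR, adjusted p = 0.0041), and without Control Diet mouse 2 the call was lost (0.76, adjusted p = 0.091). The proximal minus distal difference of Retsat within a mouse, in log2(CPM + 1), was 1.19, 1.54 and 1.05 in High Fat Diet mice and 0.34 and 0.41 in Control Diet mice, so the average over diets holds the diet contrast on which Retsat was chosen. The call of Retsat is therefore no independent difference between the organs, and the count of members called holds that contrast too. Aldh1a1 (0.50 ± 0.26), Lrat (0.42 ± 0.27) and Bco1 (-0.21 ± 0.49) did not pass the test. Leaving out a Control Diet mouse leaves that group without a replicate. In the organ and stem call comparisons, fewer genes were then called over all genes as well. A call lost in that setting is therefore not particular to these genes.

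Uncalled cells gave a like order. There edgeR called 3 of 6 members, where it called 6.32% of genes, again Adh1 (2.99 ± 0.16, adjusted p = 1.3e-06), Rbp2 (3.77 ± 0.70, adjusted p = 0.0063) and Retsat (0.83 ± 0.13, adjusted p = 0.0020), all higher in the proximal part. With the mouse as a replicate block, which uses that both organs came from the same animal, 5 of 6 members were called, where 14.5% of genes were: Aldh1a1 (1.16, adjusted p = 0.0079) and Lrat (0.84, adjusted p = 0.044) joined them, both higher in the proximal part. The calls of Rbp2 were lost without High Fat Diet mouse 2 (3.67, adjusted p = 0.076) or mouse 3 (3.95, adjusted p = 0.051), its value reached 7.93 without Control Diet mouse 2, and that of Retsat was lost without Control Diet mouse 2 (0.80, adjusted p = 0.051). For Aldh1a1, the difference within a mouse was 2.12, 2.86 and 1.92 in High Fat Diet mice and 0.0037 and -0.30 in Control Diet mice. The blocked call of Aldh1a1 therefore holds the proximal diet contrast on which it was chosen and is not read as a difference between the organs. For Retsat the difference within a mouse was 1.08, 1.54 and 1.31 in High Fat Diet mice and 0.32 and 0.20 in Control Diet mice. Its average therefore holds that contrast too, as do the counts of members called.

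Between the small intestine and the colon the members split. Rbp2 and Lrat were higher in the small intestine, and Adh1 was lower there than in the colon. Aldh1a1 was lower there on average over the diets, but not in every High Fat Diet mouse. In stem-called cells edgeR called 4 of 6 members, where it called 18% of genes. Adh1, at 7.46 to 294 CPM in the 10 small intestine sums and 1070.1 to 1412 CPM in the 5 colon sums, differed by -4.28 ± 0.30 (edgeR, adjusted p = 8.5e-08), and no colon value came near the small intestine. Aldh1a1 differed by -1.08 ± 0.23 (edgeR, adjusted p = 0.0027), although its proximal values of High Fat Diet mice (18.6 to 21.5 CPM) lay within the colon range of 6.22 to 33.1 CPM, and in High Fat Diet mouse 2 the difference was positive (0.72 in log2(CPM + 1)). The Aldh1a1 average holds the proximal diet contrast on which the gene was chosen, as does the count of members called. Lrat stood at 22.6 to 50.1 CPM in the small intestine and 6.75 to 22.9 CPM in the colon, a difference of 1.53 ± 0.28 (edgeR, adjusted p = 0.0011), with High Fat Diet mouse 3 giving the highest colon value. Rbp2 differed by 4.08 ± 0.77 (edgeR, adjusted p = 0.0013). Here too Rbp2 passed the filter on low counts only through its proximal sums, so its call is not read as an independent result. Its colon sums held 0, 0 and 2 UMIs in High Fat Diet mice and 0 and 1 UMI in Control Diet mice, and without Control Diet mouse 2 the call was lost (4.03, adjusted p = 1.0), as it was with the stem call remade at 3000 UMIs per cell (4.82, adjusted p = 0.10). Retsat (0.23 ± 0.14) and Bco1 (0.74 ± 0.53) did not pass the test.

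In uncalled cells edgeR called 5 of 6 members between the small intestine and the colon, where it called 28.9% of genes. Rbp2 (4.71 ± 0.82, adjusted p = 0.00094), Lrat (1.08 ± 0.24, adjusted p = 0.0048) and Retsat (0.53 ± 0.11, adjusted p = 0.0040) were higher in the small intestine. For Retsat the difference within a mouse was 0.92, 1.54 and 0.72 in High Fat Diet mice and -0.17 and 0.04 in Control Diet mice, so this average holds the proximal diet contrast on which Retsat was chosen and is no independent difference between the organs. Adh1 (-2.42 ± 0.12, adjusted p = 5.4e-08) and Aldh1a1 (-1.06 ± 0.34, adjusted p = 0.034) were lower there. For Aldh1a1 the difference within a mouse was 0.23, 0.81 and -0.66 in High Fat Diet mice and -1.76 and -2.04 in Control Diet mice, so it was positive in 2 of 3 High Fat Diet mice, and this average too holds the contrast on which the gene was chosen. Without Control Diet mouse 2, only Adh1 stayed called: Rbp2 (5.93, adjusted p = 1.0), Lrat (0.72, adjusted p = 0.12), Retsat (0.49, adjusted p = 0.064) and Aldh1a1 (-0.96, adjusted p = 0.15) lost their calls. The Aldh1a1 call was lost when any 1 of the 5 mice was left out (-1.20 to -0.73, adjusted p = 0.053 to 0.15). Rbp2 reached 7.18 without High Fat Diet mouse 3, which alone among High Fat Diet mice had a colon count. In uncalled cells Rbp2 passed the filter on low counts through its small intestine sums, so its call against the colon is not read as independent either.

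**Figure D3:**
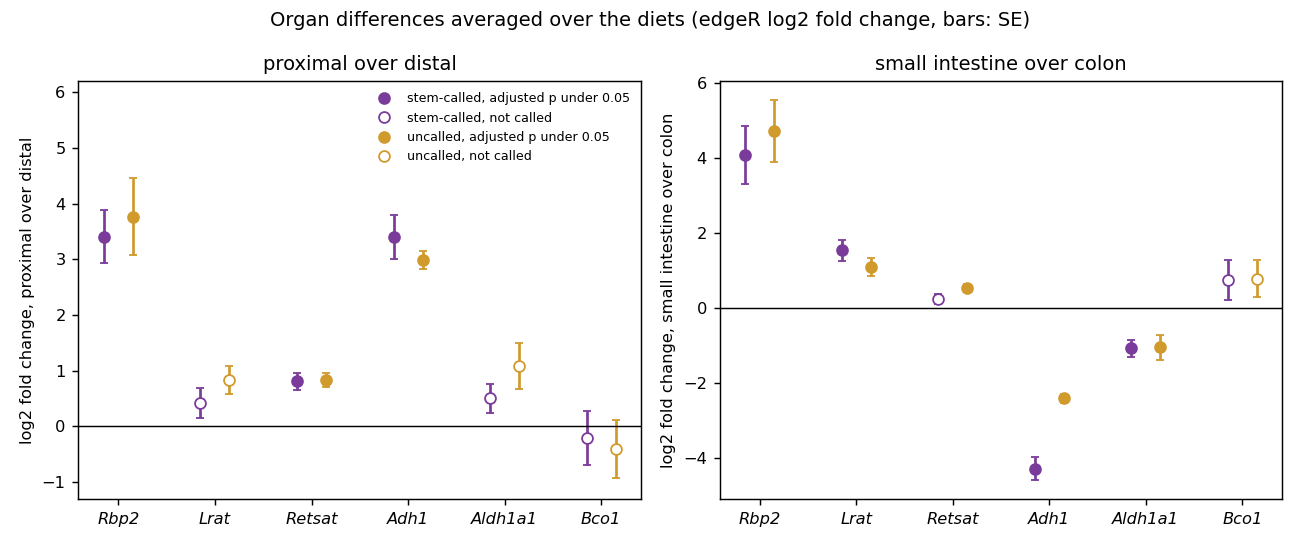
Log2 fold change of each member with its SE, averaged over the diets, for the proximal over the distal small intestine (left) and the small intestine over the colon (right), in stem-called and uncalled cells. Filled points passed an adjusted p of 0.05; Adh1 stands at 2.99 to 3.40 in the left panel and at -4.28 and -2.42 in the right one.

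In the proximal small intestine, stem-called cells held less Rbp2 and Aldh1a1 than uncalled cells of the same libraries, and Adh1 differed in opposite directions in the small intestine and the colon. In the proximal small intestine edgeR called 2 of 6 members, where it called 6.6% of genes: Rbp2 (-2.44 ± 0.56, adjusted p = 0.011) and Aldh1a1 (-1.58 ± 0.36, adjusted p = 0.011). Both were lower in the stem-called cells of all 5 libraries. With the library as a replicate block, since both sums come from the same library of the same mouse, 4 were called, where 33.4% of genes were, Retsat (-0.39, adjusted p = 0.00078) and Adh1 (-0.82, adjusted p = 0.0042) with them. The other alternative fits, those with a mouse left out among them, had no such block in any organ. Calls lost in them therefore come from fits that ignore the pairing. Aldh1a1 lost its call without High Fat Diet mouse 2 (-1.44, adjusted p = 0.092) and without Control Diet mouse 2 (-1.22, adjusted p = 0.23), and Rbp2 without High Fat Diet mouse 2 (-2.41, adjusted p = 0.12) or mouse 3 (-2.30, adjusted p = 0.099).

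In the distal small intestine edgeR called 1 of 6 members, where it called 11.9% of genes. Adh1 was lower in stem-called cells in 4 of 5 libraries, with a log2 fold change of -1.19 ± 0.31 (adjusted p = 0.015). Its stem-called sums held 21.4, 7.46 and 55.9 CPM in High Fat Diet mice and 9.91 and 12.7 CPM in Control Diet mice, and the uncalled sums 57.1, 53.6 and 48.1 CPM and 35.3 and 30.3 CPM. That call was lost without High Fat Diet mouse 1 (-1.08, adjusted p = 0.087), without mouse 2 (-0.99, adjusted p = 0.067) and without Control Diet mouse 1 (-1.06, adjusted p = 0.10) or mouse 2 (-1.37, adjusted p = 0.100). With the library as a replicate block, all 6 members were called, where 40.2% of genes were: Lrat was higher in stem-called cells (0.69, adjusted p = 0.00071), and Retsat (-0.39, adjusted p = 0.0016), Aldh1a1 (-1.13, adjusted p = 0.011), Rbp2 (-2.31, adjusted p = 5.2e-05), Adh1 (-1.14, adjusted p = 0.0021) and Bco1 (-0.86, adjusted p = 0.028) were lower. Lrat was higher in stem-called cells in each of the 10 small intestine libraries, by 0.02 to 0.92 in log2(CPM + 1).

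In the colon edgeR called 2 of 6 members, where it called 15.4% of genes. Adh1 was higher in stem-called cells, at 1070.1, 1412 and 1102 CPM in High Fat Diet mice and 1194 and 1232 CPM in Control Diet mice, against 615, 492 and 602 CPM and 806 and 610 CPM in uncalled cells. The groups did not overlap, and the difference was 0.87 ± 0.29 (adjusted p = 0.044). It was lost when High Fat Diet mouse 1 or 2 or Control Diet mouse 1 or 2 was left out (0.75 to 0.96, adjusted p = 0.087 to 0.30), with DESeq2's size factors (0.84, adjusted p = 0.053), with the stem call remade at 3000 UMIs (0.77, adjusted p = 0.14), and with cells of at least 2 immune UMIs left out (0.71, adjusted p = 0.10). With the library as a replicate block, which again called 2 of 6 members and called 41.3% of genes, it was called at an adjusted p of 0.0023. Aldh1a1 was lower in stem-called cells in 4 of 5 libraries, with a log2 fold change of -1.29 ± 0.38 (adjusted p = 0.024). Its call was lost without High Fat Diet mouse 2 (-1.32, adjusted p = 0.064) or mouse 3 (-0.77, adjusted p = 0.22) and without Control Diet mouse 2 (-0.81, adjusted p = 0.40). Lymphocyte-like cells, which should lack Adh1, carried it at 125 CPM in the colon of High Fat Diet mice and 262 CPM in that of Control Diet mice, against 730 and 776 CPM in the other cells. The part of immune cells in the colon difference was tested only by leaving such cells out.

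**Figure D4:**
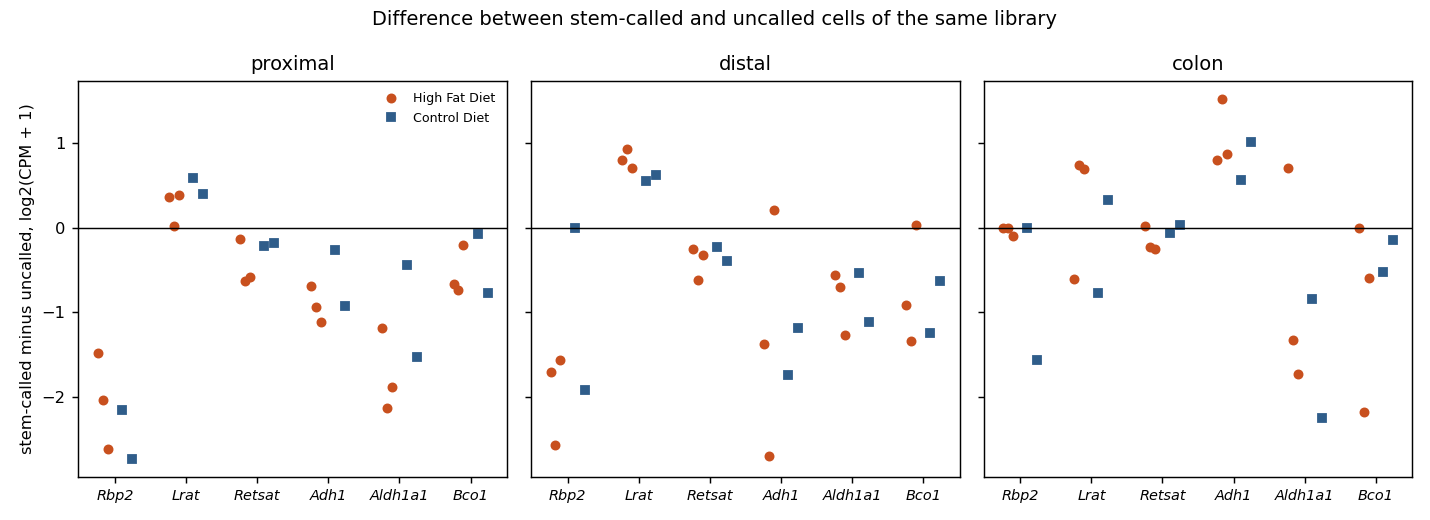
Difference between stem-called and uncalled cells of the same library in log2(CPM + 1), 1 point per library (circles, High Fat Diet; squares, Control Diet). Adh1 lies below 0 in all 5 proximal libraries and above 0 in all 5 colon libraries, and Rbp2 points at 0 in the distal small intestine and the colon are libraries where it is listed at 0.

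Clusters named from marker genes give the cells that carried each member. These levels are means over mice with at least 20 cells of a class, without a test, and 37.1% of cells stood in clusters without a name. Bco1 was concentrated in enteroendocrine-like cells, the hormone-secreting cells: they held 58.4 ± 2.09 CPM in the proximal small intestine of High Fat Diet mice (SD, 2 mice) and 56.3 ± 30.7 CPM in that of Control Diet mice (2 mice), and 55.1 ± 9.30 (3 mice) and 52.6 ± 14.0 CPM (2 mice) in the distal small intestine. In the colon it was at 52.5 CPM in the 1 High Fat Diet mouse with enough such cells and at 38.3 ± 7.25 CPM in Control Diet mice. Enteroendocrine-like cells were 2.50% of the proximal cells of High Fat Diet mice and gave 48.0% of their Bco1 UMIs (95 of 198), against 2.02% of cells and 36.3% of UMIs (62 of 171) in Control Diet mice. In proximal enterocyte-like cells, where BCO1 acts on dietary carotene, Bco1 was at 1.19 ± 1.23 CPM in High Fat Diet mice and 1.87 ± 0.08 CPM in Control Diet mice.

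Adh1 was high in tuft-like cells, chemosensory cells of the epithelium, and in enteroendocrine-like cells. Tuft-like cells held 5157 CPM in the proximal small intestine of 1 High Fat Diet mouse and 3198 CPM in that of 1 Control Diet mouse, and 1821 ± 88.8 CPM in the distal small intestine of 2 High Fat Diet mice. In the distal small intestine, tuft-like cells were 1.67% of the cells of High Fat Diet mice and gave 55.3% of their Adh1 UMIs, against 0.94% of cells and 53.4% of UMIs in Control Diet mice. Distal enterocyte-like cells held only 13.8 ± 16.9 CPM of Adh1 in High Fat Diet mice and 8.20 ± 5.85 CPM in Control Diet mice. Proximal enterocyte-like cells held 862 ± 184 and 581 ± 248 CPM. In the colon, 73.0% of the Adh1 UMIs of High Fat Diet mice and 74.4% of those of Control Diet mice came from clusters without a name, at 1107 ± 93.7 and 1082 ± 203 CPM.

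Aldh1a1 was high in absorptive classes of each organ: in proximal enterocyte-like cells of High Fat Diet mice as given above, in distal enterocyte-like cells at 45.1 ± 21.3 CPM in High Fat Diet mice and 28.2 ± 24.6 CPM in Control Diet mice, and in colonocyte-like cells at 137 CPM in 1 High Fat Diet mouse and 173 ± 18.4 CPM in Control Diet mice. Colonocyte-like cells gave 66.5% of the colon's Aldh1a1 UMIs in High Fat Diet mice and 68.2% in Control Diet mice. Lrat stood higher in dividing-like and stem-like cells than in goblet-like cells. In the proximal small intestine dividing-like cells held 40.9 ± 10.8 CPM in High Fat Diet mice and 48.3 ± 11.3 CPM in Control Diet mice, stem-like cells 38.9 ± 6.44 and 39.0 ± 5.92 CPM, and goblet-like cells 10.2 ± 3.44 and 5.53 ± 0.31 CPM. Rbp2 UMIs came mostly from enterocyte-like cells, which gave 78.1% of them in the proximal small intestine of High Fat Diet mice and 70.1% in that of Control Diet mice, a share that the use of Rbp2 as a marker can raise.

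**Figure D5:**
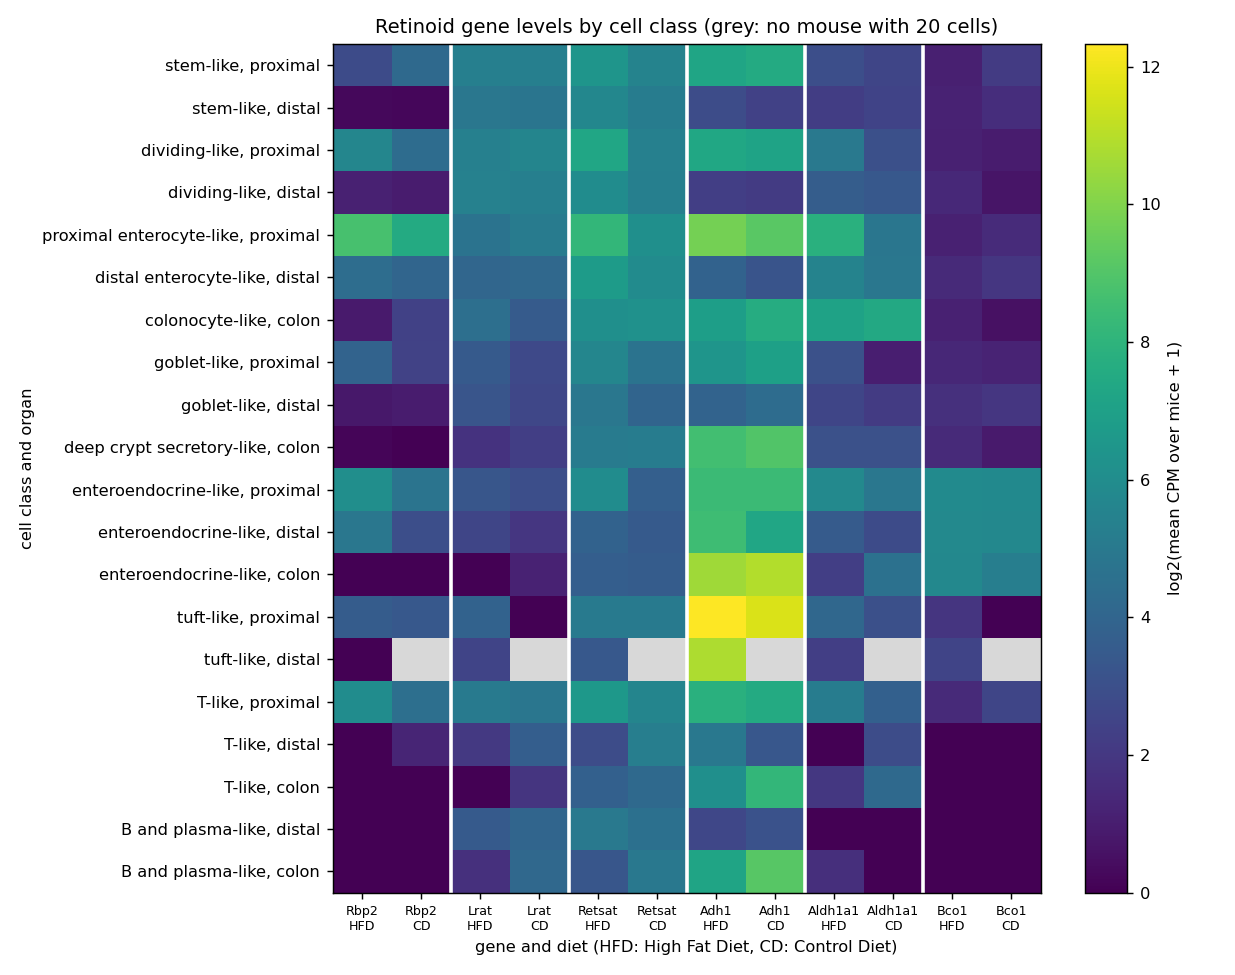
Mean level over mice of each member, as log2(CPM + 1), in marker-named cell classes of each organ, with the High Fat Diet column left of the Control Diet column for each gene; grey marks classes without a mouse of at least 20 cells. Bco1 is high in the 3 enteroendocrine-like rows, at 38.3 to 58.4 CPM, and Adh1 in tuft-like rows, at 1821 to 5157 CPM.

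Across the 30 sums, the members did not form 1 pattern. Pearson's r of log2(CPM + 1) was highest for Retsat with Rbp2 (0.75) and lowest for Lrat with Adh1 (-0.46), over sums that share mice, libraries and depth. By the same measure, among genes of at least 10 CPM on average, the 3 genes most like each member were Acadvl (0.96), Hsd17b11 (0.91) and Eci2 (0.90) for Retsat, Apoa4 (0.96), Arg2 (0.95) and Fabp1 (0.94) for Rbp2, and Me1 (0.84), Ces1f (0.84) and Abhd6 (0.83) for Aldh1a1. For Lrat they were Hipk2 (0.89), Pdha1 (0.88) and Stag2 (0.87), for Adh1 Vsig2 (0.89), Scarb1 (0.88) and Ly6e (0.85), and for Bco1 Chgb (0.93), Camk2b (0.86) and Neurod1 (0.86).

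A list of 45 other genes of retinoid uptake, transport, oxidation and response was counted beside the members, of which 39 stood in the table and 26 were tested in stem-called and 32 in uncalled cells. Diet called 0 of them in the distal small intestine and 0 in the colon, in either population. Between the proximal and distal small intestine, 5 of 26 were higher and 2 lower in the proximal part in stem-called cells, beside 5.46% of all genes called. These 7 calls became 4 without High Fat Diet mouse 3 and with the stem call remade at 3000 UMIs. Without Control Diet mouse 1 or 2 fewer were called, in the list as over all genes. The retinol dehydrogenase Rdh7 (2.46 ± 0.31, adjusted p = 0.00064), the lipid and carotenoid receptor Scarb1 (2.06 ± 0.27, adjusted p = 0.00023), Dhrs4 (0.96 ± 0.18, adjusted p = 0.0036) and the retinal reductase Dhrs3 (0.74 ± 0.19, adjusted p = 0.032) were higher. Rdh1 (-5.07 ± 0.49, adjusted p = 1.6e-05) and the retinol carrier Rbp4 (-3.32 ± 0.70, adjusted p = 0.0097) were lower. The call of Rbp4 was lost without Control Diet mouse 1 (-2.99, adjusted p = 0.10) or mouse 2 (-3.61, adjusted p = 0.069), and that of Dhrs3 when any 1 of the 5 mice was left out (0.64 to 0.83, adjusted p = 0.078 to 0.14). Rdh1 stood at 0.44 to 1.29 CPM in the 5 proximal sums and at 10.8 to 40.1 CPM in the 5 distal sums, so the distal ranges did not touch the proximal ones. In uncalled cells 9 of 32 were higher and 2 lower, beside 6.32% of all genes called. The 11 calls became 6 without High Fat Diet mouse 2, where 419 of 14315 genes were called, and 7 without High Fat Diet mouse 3. Without Control Diet mouse 1 or 2 fewer were called here too, in the list as over all genes. Scarb1 (2.01 ± 0.28, adjusted p = 0.00099) and Bco2, which cleaves carotenoids off centre (1.77 ± 0.27, adjusted p = 0.0020), were higher in the proximal part. The medians over the list were 0.30 and 0.38, against -0.00026 and 0.02 over all genes tested.

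Between the small intestine and the colon, 6 of 26 were higher and 4 lower in stem-called cells, and 12 of 32 were higher and 6 lower in uncalled cells, beside 18% and 28.9% of all genes called. Without Control Diet mouse 2 fewer were called in uncalled cells, in the list as over all genes. Rdh7 was listed at 0 in all 5 colon libraries in both populations and stood at 2.75 to 35.2 CPM in stem-called cells of the small intestine. The receptor Rarg (-4.47 ± 0.51, adjusted p = 1.2e-05), Rdh1 (-2.77 ± 0.36, adjusted p = 4.0e-05) and Scarb1 (-1.999 ± 0.21, adjusted p = 5.0e-06) were lower in stem-called cells of the small intestine. Dgat1, which can also esterify retinol (2.32 ± 0.17, adjusted p = 1.3e-07), and the retinol-binding protein Rbp7 (2.03 ± 0.33, adjusted p = 0.00034) were higher. Against uncalled cells, stem-called cells were higher for 1 and lower for 7 of 32 genes in the proximal part, higher for 3 and lower for 4 in the distal part, and higher for 3 and lower for 1 in the colon. These 8, 7 and 4 calls stand beside 6.6%, 11.9% and 15.4% of all genes. With the library as a replicate block the calls numbered 20, 16 and 7 in the 3 organs, beside 33.4%, 40.2% and 41.3% of all genes. Without Control Diet mouse 2, which left that group without a replicate, fewer were called in the list as over all genes. Stra6l, a retinol-binding protein receptor, was higher in distal stem-called cells (1.28 ± 0.28, adjusted p = 0.0048) and in colon stem-called cells (0.97 ± 0.29, adjusted p = 0.025). It was also higher in the proximal part (1.25 ± 0.28, adjusted p = 0.0089), a value added after it had been seen. In the colon its call was lost without Control Diet mouse 2 (0.89, adjusted p = 0.074) or any 1 High Fat Diet mouse (0.76 to 1.06, adjusted p = 0.055 to 0.20). Rbp7 was lower in the proximal (-1.74 ± 0.23, adjusted p = 0.00018) and distal part (-1.63 ± 0.24, adjusted p = 0.00013).

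In the proximal small intestine, without a test, 12 of 32 of these genes were higher in every High Fat Diet mouse than in every Control Diet mouse in uncalled cells and 3 (Rbp7, Rdh13 and Rarg) were lower, against 5.98% and 10.4% of all genes. In stem-called cells 4 of 26 were higher and 3 (Stra6l, Rdh10 and Rdh13) were lower, against 7.31% and 9.78% of all genes. Dhrs4 averaged 329 ± 52.9 CPM in uncalled cells of High Fat Diet mice (SD, n = 3) and 195 ± 0.52 CPM in those of Control Diet mice (n = 2). Rdh7 averaged 54.6 ± 13.8 CPM in High Fat Diet mice and 27.3 ± 3.01 CPM in Control Diet mice, and Bco2 37.9 ± 5.65 and 26.8 ± 2.05 CPM. In the other direction, Stra6l averaged 47.5 ± 6.00 CPM in stem-called cells of High Fat Diet mice and 85.0 ± 24.1 CPM in those of Control Diet mice, without overlap. These examples were chosen after their values were seen.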

How the data were processed

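Single-cell libraries of 15 organ samples from 5 mice were measured as UMI counts. The deposited count table holds whole-number counts of UMIs per gene and cell, not normalized by the authors, and the genome build is mm10 per the submitters' processing notes. The aligner and counter are not given in the sources used here. The cells of 1 Control Diet mouse are numbered otherwise in the cell table than in the labels, and were taken as Control Diet mouse 2 because the other mice were matched.

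Counts were summed per mouse, organ and stem call, giving 30 sums. Total counts per sum ranged from 321496 to 28652200. Genes were filtered with filterByExpr, scaled by TMM and tested with edgeR's quasi-likelihood test (edgeR 4.0.16, R 4.3.3, limma 3.58.1) at a Benjamini-Hochberg adjusted p of 0.05 over all genes tested, with all organs in 1 fit for each population. DESeq2 1.42.0 was an alternative. The scripts were tested on simulated data. The other alternatives were DESeq2's size factors, no filter, each mouse left out, a replicate block, a stem call at 3000 UMIs and the removal of cells with at least 2 immune UMIs. Organs of a mouse and both sums of a library come from the same animal, so their numbers pair them. Deviations from the group mean correlated at 0.111 to 0.746 between organs and at 0.309 to 0.815 between calls. Different mice of the same number in the 2 diets correlated at 0.0013 to 0.639, so the ranges overlap and the pairing rests on the labels. With 2 Control Diet mice the deviations mirror each other, so both mice give the same values. Separate mice stand behind each diet sample, and libraries shared 16 cell barcodes in all.

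Cells were clustered with scanpy 1.11.5 and leidenalg 0.10.2 (30 principal components, 15 neighbours, resolution 1, 28 clusters), named by marker genes and called X-like. No doublet caller was run, and the clusters were rebuilt here. Shares of cells used cells thinned to 3000 UMIs with 95% Wilson intervals, which cover counting error only. The members and the lists were chosen with earlier results of these data known. All members were named in every comparison, and other retinoid genes where called, at most the 6 of largest change, apart from those marked in the text.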

Additional observations from a re-analysis of the deposited data

Results flagged for a closer look

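The small intestine minus colon difference of Retsat in stem-called cells, in log2(CPM + 1), had a median of 0.71 in High Fat Diet mice and -0.30 in Control Diet mice. It was above 0 in all 3 High Fat Diet mice and below 0 in both Control Diet mice. The difference was not tested, and it contains the proximal diet contrast on which Retsat was chosen.

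The stem-called minus uncalled difference of Adh1 had a median of -0.92 over proximal libraries and 0.87 over colon libraries. All 5 proximal libraries lay below 0 and all 5 colon libraries above it. The difference between the organs was not tested.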

How the results depend on the processing

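Of 20 member results past the threshold, 7 kept their call under every setting, and of their 213 alternative values 180 kept the call, 33 lost it and 0 changed sign. The number of members called moved by over 1.5 times in these cases. With the replicate block it was 5 for the proximal against distal small intestine in uncalled cells, and for stem-called against uncalled cells 4 in the proximal and 6 in the distal small intestine. DESeq2 gave 1 in the proximal and 3 in the distal part, the stem call at 3000 UMIs gave 3 in the distal part and 1 in the colon, leaving out cells with immune UMIs gave 4 and 1, and DESeq2's size factors gave 1 in the colon. Leaving out 1 mouse gave 1 to 4 members for the small intestine against the colon in uncalled cells, and 0 to 2 in the proximal part, 0 to 1 in the distal part and 0 to 1 in the colon for the stem call. Unthinned, the share of proximal uncalled cells of High Fat Diet mice with a Retsat UMI was 64.0%. The cause of these changes was not tested, and over all genes fewer were also called between organs and stem calls without a Control Diet mouse. Sign changes occurred only among differences that had not passed the test or were not tested. With the replicate number as a replicate block, which joins different mice across the diets, the diet difference became -0.031 for Aldh1a1 and -0.20 for Bco1 in distal stem-called cells, -0.20 for Aldh1a1, 0.13 for Rbp2 and -0.0024 for Bco1 in distal uncalled cells, 0.0036 for Retsat and -0.10 for Adh1 in colon stem-called cells, -0.058 for Bco1 in colon uncalled cells, and -0.015 for Adh1 and -0.26 for Bco1 in proximal stem-called cells. With the stem call at 3000 UMIs it became -0.054 for Aldh1a1 and 0.73 for Rbp2 in distal stem-called cells and 0.00055 for Rbp2 in distal uncalled cells. DESeq2 gave 0.10 for Rbp2 in distal uncalled cells. Without cells with immune UMIs it was -0.011 for Bco1 in distal uncalled cells and 0.13 for Retsat in colon uncalled cells. For Lrat in the colon, stem-called against uncalled, DESeq2's size factors gave -0.016, DESeq2 gave -0.022 and leaving out immune cells gave -0.11. Leaving out 1 mouse, the diet difference ranged in distal stem-called cells from -0.17 to 0.39 for Aldh1a1, -1.75 to 5.41 for Rbp2 and -0.30 to 0.36 for Lrat, and in distal uncalled cells from -0.40 to 0.77, -0.84 to 9.17 and -0.46 to 0.10 for the same genes and -0.053 to 0.11 for Bco1. In colon stem-called cells it ranged from -0.28 to 0.017 for Retsat, -3.25 to 3.36 for Rbp2, -0.25 to 1.10 for Lrat and -0.17 to 0.10 for Adh1, and in colon uncalled cells from -0.21 to 0.050 for Retsat, -1.44 to 0.30 for Aldh1a1, -7.46 to 5.23 for Rbp2, -0.59 to 0.46 for Lrat and -0.74 to 0.62 for Bco1. In the proximal part it ranged from -0.49 to 0.91 for Adh1 and -0.21 to 0.54 for Bco1 in stem-called cells and from -0.39 to 0.13 for Lrat in uncalled cells. The proximal against distal difference of Bco1 in stem-called cells ranged from -0.54 to 0.38, and the colon stem call difference of Lrat from -0.31 to 0.33. The diet comparisons rest on 3 and 2 mice, Bco1 on few UMIs, and Rbp2 outside the proximal part on libraries where it is listed at 0.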
